A study of Mus musculus with 38 samples.

Results

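The effect of losing all lamins on LAP2B binding in epiblast-like cells (EpiLCs) was examined in 6 of the 38 samples of the series, chosen by their labels as the 3 TKO and the 3 wild-type (WT) EpiLC libraries made with the LAP2B antibody. TKO cells lack all 3 lamin genes, Lmna, Lmnb1 and Lmnb2, which encode lamins A/C, B1 and B2, while WT cells carry them intact. Both lines were male mouse embryonic stem cells turned into EpiLCs with 20 ng/mL FGF and 12 ng/mL activin A and collected after 48 h, and each library was made by CUT&RUN on 200000 cells. CUT&RUN uses a nuclease tethered to an antibody to release DNA near the antibody's target. The fit also used naive TKO and naive WT cells, which were not differentiated, and, for the spread between libraries, LBRKO and QKO cells at both stages. LBRKO cells lack the lamin B receptor gene Lbr, and QKO cells, derived from TKO, lack Lbr and the 3 lamin genes. The LMNB1 and immunoglobulin (IGG) libraries of WT EpiLCs served to rank genes and repeats. LMNB1 and IGG were not analysed here in TKO cells.

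Each genotype was a single line, made from littermates. The TKO line carries an extra chromosome 8 and some of its cells lack Y, while the WT line is mostly normal but holds populations that lost Y or gained chromosomes 6 and 8. Copy number of chromosomes 6, 8 and Y therefore cannot be told apart from the loss of lamins in this comparison. The labels do not say whether the libraries of a group came from separate cultures, so p-values measure only the spread between libraries. Coverage of genomic DNA does not measure transcripts, so neither the EpiLC state nor the loss of the lamins could be checked from markers in these tables.

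LAP2B is a form of lamina-associated polypeptide 2, made by the gene Tmpo, that sits in the inner nuclear membrane and binds lamins and chromatin. Lamins form the meshwork under that membrane, and the genome that lies against it is gathered in lamina-associated domains, which are poor in genes, rich in A and T, and enriched for LINE-1 repeats. Gene-dense regions with many SINE repeats usually lie in the nuclear interior. EpiLCs resemble the epiblast shortly after implantation, when cells leave naive pluripotency and become ready to form the germ layers. In EpiLCs the study took no lamina position from LAP2B, so the values below are LAP2B coverage and nothing more.

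Reads recovered over the gene table numbered 18713692 to 33084955 in the 6 libraries. Replicates differed beyond sampling noise, with a chi-square per degree of freedom between 3.43 and 5.67. Values are given on a relative scale, in which the median gene of a library equals 1 (or, for repeats, the median family), unless the spike-in scale is named, which is the deposited value. A gene's value sums the 1 kb bins it touches and grows with its length, so values are compared between libraries and not between genes. Changes are log2 differences, TKO minus WT, tested with limma over all 70381 genes or 1202 families and called at an adjusted p under 0.05.

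TKO libraries had lost most of the preference for LMNB1-rich genes that WT libraries showed. The lamina contrast, the log2 ratio of LAP2B per bin in the quartile of genes with most LMNB1 to that in the quartile with least, was 0.337, 0.307 and 0.280 in TKO replicates 1 to 3. In WT replicates it was 1.09, 0.750 and 0.861. All TKO libraries lay below all WT libraries, by 0.59 on average (two-sided exact permutation p = 0.1, the smallest that 3 against 3 allow). Across 70312 genes, the profiles of TKO libraries had a Pearson correlation of 0.273 to 0.301 with mean WT LMNB1 and of 0.733 to 0.765 with mean WT IGG, the non-specific background. In WT libraries the same correlations were 0.592 to 0.729 and 0.388 to 0.558. These correlations are descriptions over genes that share libraries and local sequence. Total LAP2B on the spike-in scale overlapped between the lines (exact p = 0.2 over genes).

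The change of a gene followed its ratio of LMNB1 to IGG. Genes were ranked by that ratio in WT EpiLCs, which takes no value from the LAP2B libraries. Below, an LMNB1 quartile is a quartile of this ratio. In the lowest quartile 3639 of 17577 genes were called higher and 14 lower in TKO, with a median change of 0.32. In the highest quartile 12 of 17578 were called higher and 6304 lower, with a median of -0.45. The middle quartiles lay between, with medians of 0.17 and -0.097. With genes ranked by LMNB1 alone, the medians fell from 0.23 in the lowest quartile to -0.38 in the highest. With IGG alone they rose from -0.30 to 0.23, so the order is not one of LMNB1 only. Over all genes 5289 (7.51%) were called higher and 7540 (10.7%) lower, and the median change was 0.026. With libraries scaled by their mean gene the balance turned, with 9548 called higher and 5617 lower. Without WT replicate 1 there were 1772 called higher and 3826 lower. Across 70311 genes the change had a Pearson correlation of -0.70 and a Spearman correlation of -0.71 with log2 of LMNB1 over IGG, again as a description.

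**Figure D1:**
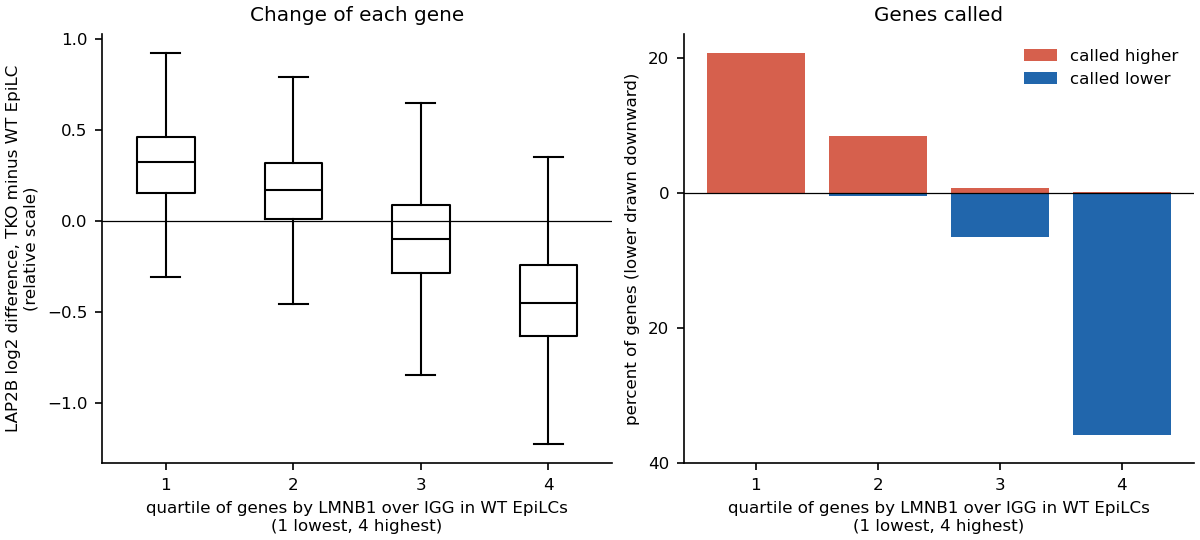
LAP2B change by quartile of genes ranked by LMNB1 over IGG in WT EpiLCs. Left, boxes give the median and interquartile range of log2 differences (TKO minus WT EpiLC, relative scale), with whiskers to 1.5 times the box height. Right, bars give the percent of genes called higher (up) or lower (down). The median falls from 0.32 in quartile 1 to -0.45 in quartile 4.

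The starts of 4 genes from the largest rises and falls are shown. They were chosen because their sequence differs as the groups do, so they illustrate that difference and do not test it. Each window holds 250 bases before and 50 bases after the annotated gene start in GRCm39, read 5′ to 3′ on the gene's strand, with CG dinucleotides in capitals. Ccdc71 (chr9:108329325-108329624, plus strand) and Drd4 (chr7:140871652-140871951, plus strand) are from the genes that rose most. Pramel33 (chr5:93688010-93688309, minus strand) and Klrc2 (chr6:129637603-129637902, minus strand) are from those that fell most.
Ccdc71: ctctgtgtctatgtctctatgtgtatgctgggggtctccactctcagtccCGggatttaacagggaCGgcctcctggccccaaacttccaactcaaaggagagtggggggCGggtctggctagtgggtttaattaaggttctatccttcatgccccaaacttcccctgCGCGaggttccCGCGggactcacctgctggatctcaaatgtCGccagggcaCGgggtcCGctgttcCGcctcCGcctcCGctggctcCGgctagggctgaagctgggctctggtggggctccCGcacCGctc
Drd4: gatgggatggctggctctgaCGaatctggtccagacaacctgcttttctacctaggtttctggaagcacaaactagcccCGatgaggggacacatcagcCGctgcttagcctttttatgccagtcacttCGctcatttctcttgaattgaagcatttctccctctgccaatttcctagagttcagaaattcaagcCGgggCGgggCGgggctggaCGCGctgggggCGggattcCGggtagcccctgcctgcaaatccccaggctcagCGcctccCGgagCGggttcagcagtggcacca
Pramel33: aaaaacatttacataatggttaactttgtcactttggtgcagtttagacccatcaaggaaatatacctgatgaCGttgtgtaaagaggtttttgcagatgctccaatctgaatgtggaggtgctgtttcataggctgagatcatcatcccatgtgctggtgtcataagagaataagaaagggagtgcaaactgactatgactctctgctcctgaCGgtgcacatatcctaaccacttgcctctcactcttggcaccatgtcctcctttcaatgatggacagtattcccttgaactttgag
Klrc2: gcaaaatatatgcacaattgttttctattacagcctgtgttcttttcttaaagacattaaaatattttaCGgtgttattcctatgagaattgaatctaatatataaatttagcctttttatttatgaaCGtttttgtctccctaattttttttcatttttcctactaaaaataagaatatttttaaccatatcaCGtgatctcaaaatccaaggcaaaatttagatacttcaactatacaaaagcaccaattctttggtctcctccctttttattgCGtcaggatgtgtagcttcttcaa

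These windows hold 16, 14, 2 and 4 CG dinucleotides, and their GC content is 61.7%, 57.7%, 42.7% and 28.7%. The search was for the letters CG, which read the same on both strands, and 91.8% of all gene windows hold at least 1 and 24.9% hold 10 or more. Among protein-coding genes called higher, the median window held 13 and 62.7% held 10 or more. Among those called lower the median was 3 and the share 25.0%, against 8 and 46.8% for all protein-coding genes tested. Gene bodies differed likewise, with a median GC content of 49.1% in all genes called higher, 39.7% in those called lower and 45.3% in all genes tested. Within the highest LMNB1 quartile, genes in the lowest quartile by GC had a median change of -0.50 and those in the highest -0.30. Within the lowest LMNB1 quartile the same medians were 0.18 and 0.36, so the change moved with GC content inside both ends of the LMNB1 ranking.

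Among the 10 largest falls, Esp38 came first at -2.59 and is described after Klrc2, Pramel33 and Pramel44. Klrc2 (ENSMUSG00000052736), an NKG2 receptor of natural killer cells, had relative values of 0.512, 0.522 and 0.456 in TKO and 2.91, 2.34 and 2.21 in WT. Every TKO library was far below every WT library, and the change was -2.11 ± 0.22 (SE; limma adjusted p = 1.39e-09). Pramel33 (ENSMUSG00000096044), of the Prame-like family expressed in germ cells and early embryos, had values of 1.45, 1.61 and 1.67 in TKO and 7.73, 6.94 and 7.01 in WT. The groups were far apart, at -2.13 ± 0.15 (limma adjusted p = 9.03e-16). Pramel44 had values of 0, 0.0174 and 0.096 in TKO and 0.347, 0.547 and 0.700 in WT. Its summed reads, 14 in TKO and 133 in WT, gave a ratio of 0.0888 per total reads (exact 95% interval 0.0473 to 0.154, counting error only).

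Reads over Esp38, an exocrine gland-secreted peptide gene on chromosome 17, were almost absent from the TKO line. There were 0, 1 and 1 reads in TKO EpiLCs and 1, 0 and 0 in naive TKO cells, against 41, 78 and 26 in WT EpiLCs. The LBRKO line, which lacks the lamin B receptor, had 73, 36 and 44 in EpiLCs, and the QKO line, derived from TKO, had 0, 2 and 1. The ratio of TKO to WT EpiLCs per total reads was 0.0116 (exact 95% interval 0.00140 to 0.0428, counting error only, while replicates differed by 3.43 to 5.67 times sampling noise). Klrc2 had 54, 21 and 54 reads in naive TKO cells and 35, 59 and 44 in QKO EpiLCs. It had 202, 177 and 220 in naive WT cells and 196, 173 and 166 in LBRKO EpiLCs. Pramel33 and Pramel44 likewise had fewer reads in naive TKO cells and QKO EpiLCs than in naive WT cells and LBRKO EpiLCs. Missing or unmapped sequence in the TKO line cannot be told apart from less LAP2B at Esp38 or at these genes. Reads of near-identical copies may be split or shared, so values of single members of the Pramel, Klr, Or, Vmn, Esp and defensin families are uncertain.

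The remaining largest falls by the same rule were in odorant receptors, a killer cell receptor, a stefin, a chemokine and a somite regulator. Or6c205 went from 2.05 to 0.648 and Or6a2 from 3.11 to 1.07 in mean relative value, both odorant receptors. Klri2, a lectin-like receptor of killer cells, went from 2.73 to 1.07. Stfa2l1, a stefin-like protease inhibitor, went from 1.24 to 0.460, and Cxcl3, a neutrophil chemokine, from 2.10 to 0.801. Their changes lay between -1.52 and -1.32. TKO and WT libraries did not overlap, which the rule required and which held in 18.6% of all genes in this direction. Ripply1, a repressor that acts with T-box factors at somite boundaries, had values of 0.175, 0.357 and 0.440 in TKO and 0.933, 0.925 and 0.857 in WT, a change of -1.30 ± 0.24 (limma adjusted p = 9.82e-05).

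Megabases were ranked by the median change of their protein-coding genes, where at least 5 were tested, and the extremes are given with no test. In the megabase that begins at 94 Mb of chromosome 5, 9 of 9 protein-coding genes from Pramel36 to Pramel44 were called lower with a median change of -1.33, and in the next, 9 of 11. In the megabase that begins at 129 Mb of chromosome 6, 22 of 25 from Klrb1f to Klra6 were called lower, with a median of -0.93. At the other end, 8 of 10 genes were called higher in the megabase that begins at 122 Mb of chromosome 8 (median 0.54), 4 of 7 in that at 125 Mb of chromosome 4 (median 0.513) and 17 of 31 in that at 123 Mb of chromosome 8 (median 0.509). Chromosome 6 as a whole had 31 genes called higher and 762 lower of 4092. Its medians were lower than those of chromosome 11 in the lowest LMNB1 quartile (0.098 against 0.36) and in the highest (-0.57 against -0.48). Chromosome 8, the chromosome with the extra copy in the TKO line, had medians of 0.34 and -0.47 in the same quartiles. Copy number was not measured, and its part in these values was not tested.

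The largest rises were in genes of varied function, and they were smaller than the largest falls. Drd4 (ENSMUSG00000025496), a dopamine receptor, had values of 1.80, 2.18 and 2.296 in TKO and 1.04, 0.792 and 0.957 in WT. Ccdc71 (ENSMUSG00000049305), a coiled-coil gene, had 2.26, 2.00 and 2.31 in TKO and 0.813, 0.925 and 1.19 in WT. All TKO libraries were above all WT libraries in both genes, with changes of 1.09 ± 0.19 and 1.105 ± 0.199 (limma adjusted p = 4.78e-05 and 6.80e-05). On the spike-in scale they rose by 0.87 and 0.88 (limma adjusted p = 0.0339 and 0.0293), and 6 protein-coding genes were called higher on that scale.

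The other 8 rises named by the rule (at least 5 bins, called, not overlapping, at most 2 per symbol stem) lay between 0.89 and 0.94. They were Nudt16l1, whose product takes part in the control of DNA repair, Cisd3, a mitochondrial iron-sulphur protein, Arl10, a small GTPase of the ADP-ribosylation factor group, and Pdxp, the pyridoxal phosphatase. H2-T13 is a non-classical class I histocompatibility gene, Cyp27b1 makes the active form of vitamin D, Ly6g5c is a gene of the major histocompatibility complex, and Or13e8 is an odorant receptor. Or13e8, at 1.18, 1.24 and 1.41 in TKO and 0.600, 0.481 and 0.843 in WT, was an exception in its family and lies in the lowest LMNB1 quartile, as do Drd4, Nudt16l1, Cisd3, Arl10, Pdxp and Ly6g5c. None of these 8 genes passed the test on the spike-in scale.

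**Figure D2:**
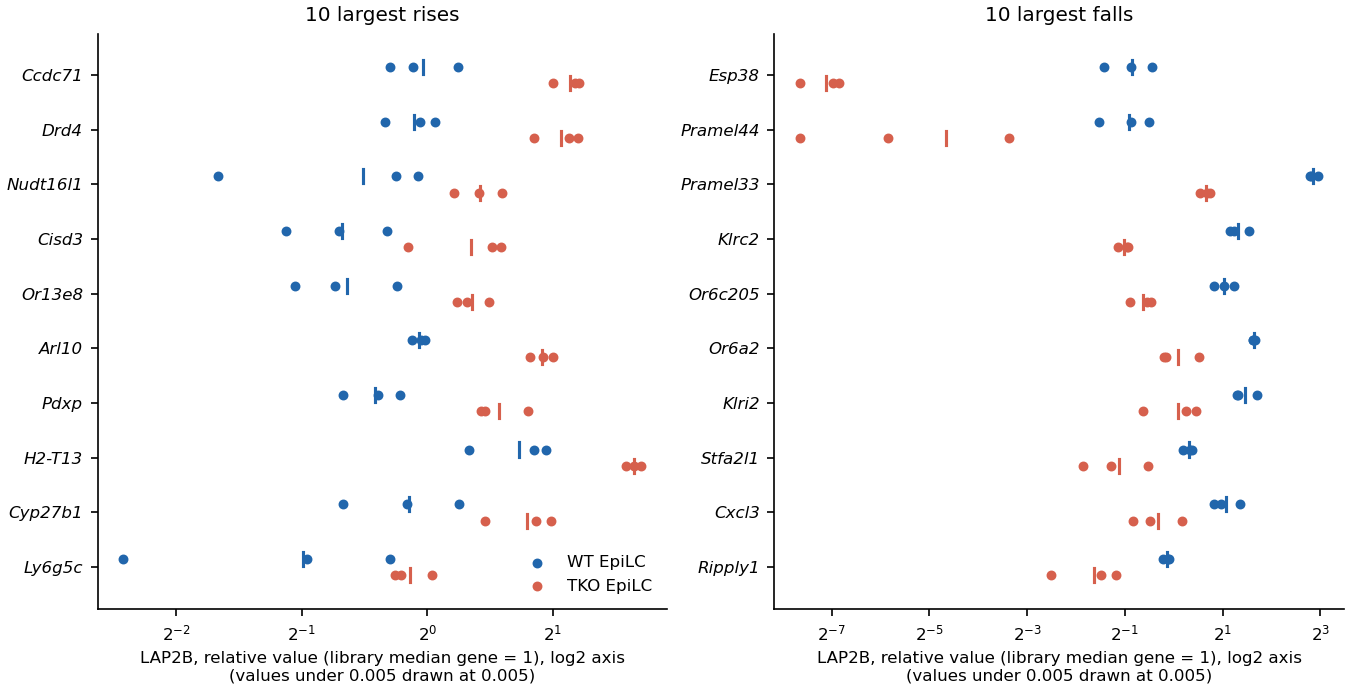
Relative LAP2B values (library median gene = 1, log2 axis) of the 10 protein-coding genes with the largest rise and the 10 with the largest fall in TKO EpiLCs, among those with a symbol and at least 5 bins, called, not overlapping and at most 2 per symbol stem. Points are libraries (3 a genotype), short lines are means, and values under 0.005 are drawn at 0.005. TKO and WT libraries overlap in none of the 20 genes, which the rule required.

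Very long neuronal genes, which lie in large A and T rich domains, fell together. Of 30, 29 were called lower and 0 higher, with a median change of -0.62, beside 10.7% of all genes called lower. Calls lower rose with length, from 4.10% in the quartile of genes with fewest bins to 24.3% in that with most. Cntn4, a neuronal adhesion molecule, had relative values of 110.5, 115.7 and 127.0 in TKO and 242.1, 200.2 and 183.7 in WT, a change of -0.82 ± 0.10 (limma adjusted p = 8.85e-08). Csmd1, a very large membrane protein of neurons, fell less, with 225.4, 239.7 and 253.2 in TKO and 335.0, 312.0 and 301.5 in WT. On the spike-in scale 25 of the 30 were called lower, against 9.52% of all genes.

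Sensory receptor families had medians below 0 as well, but outside the type 2 vomeronasal receptors most members were not called. Of 1112 olfactory receptor genes, 383 were called lower and 2 higher, with a median change of -0.55. Median log2 LMNB1 over IGG was 2.15 for olfactory, 1.88 for type 1 vomeronasal and 2.20 for bitter taste receptors. All lie within the highest quartile, where 35.9% of genes were called lower with a median change of -0.45. The shares called lower were 34.4%, 35.8% and 29.4%, near or below it, and 84.1% in type 2 vomeronasal receptors. Over all genes tested, 10.7% were called lower and 7.51% higher. With 1 library left out, 141 to 381 olfactory receptor genes were called lower. Or5an10 had the largest fall of the family, from 0.608 ± 0.159 in WT to 0.120 ± 0.032 in TKO (SD, n = 3). Of the vomeronasal receptors, which detect pheromones, 95 of 113 type 2 and 53 of 148 type 1 genes were called lower and 0 higher. With 1 library left out, 57 to 97 type 2 and 19 to 54 type 1 genes were called lower. Vmn2r21, at 2.84, 3.38 and 3.37 in TKO and 7.75, 7.07 and 7.44 in WT, fell most among type 2 genes. Bitter taste receptors had 10 of 34 called lower, Tas2r136 among them with a change of -1.21. Of 15 trace amine receptor genes 0 were called by limma and 0 had an unadjusted p under 0.05. Their median change was -0.046, and they spanned a median of 2 bins. The median of their log2 LMNB1 over IGG was 1.05 (0.84 for all genes), within the third quartile. In that quartile the median change was -0.097 and 6.51% of genes were called lower.

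Immune and metabolic gene clusters gave further falls, except keratin-associated genes. Over all genes tested, 10.7% were called lower and 7.51% higher. Killer cell lectin-like receptors had 21 of 27 members called lower, with a median of -0.90, and Pramel genes 32 of 60, with a median of -0.68. The highest LMNB1 quartile, which holds the median log2 LMNB1 over IGG of both groups (2.18 and 1.68), had 35.9% of genes called lower. The killer cell receptor genes from Klrb1f to Klra6 lie on chromosome 6, where 18.6% of all genes were called lower. The part of copy number there was not tested. Skint genes, which select a class of skin T cells, had 8 of 11. Skint1 itself went from 4.17 to 2.36 in mean relative value. Ugt genes, which attach glucuronic acid to drugs and hormones, had 9 of 19, with 4 left without WT replicate 1 and 5 without TKO replicate 2, and Ugt2b36 fell by 0.95 on the log2 scale. Defensins, the antimicrobial peptides, had 20 of 70 called lower and 2 higher. Defa20, at 0.0625, 0.104 and 0.040 in TKO and 0.520, 0.5 and 0.586 in WT, fell most, while Defb36 rose by 0.66. Serpina and Serpinb genes had 15 of 53 and the Cyp2, Cyp3 and Cyp4 genes 27 of 72 called lower, among them Serpinb3a (-0.99) and Cyp3a59 (-0.92). In the latter group 3 were called higher, led by Cyp4f40 (0.52), and 0 to 6 with 1 library left out. Keratin-associated proteins lay below both shares, with 1 of 92 called lower and 3 higher, Krtap10-24 among them with a change of 1.00. With 1 library left out, 0 to 2 were called lower and 0 to 3 higher.

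Of protein-coding genes tested, 16.4% were called higher and 13.2% lower on the relative scale, and the counts for regulators of pluripotency and of the germ layers stand beside these shares. Of 5 core pluripotency factors 2 were called higher, with a median of 0.43, and of 19 primed epiblast factors 6, with a median of 0.32. Lin28a, an RNA-binding protein of pluripotent cells, had values of 4.33, 4.85 and 4.37 in TKO and 2.68, 2.95 and 2.56 in WT (0.71 ± 0.15; limma adjusted p = 0.000591). Otx2, a driver of the primed state, went from 2.60 ± 0.596 to 3.63 ± 0.210 (SD, n = 3), and Etv4, a target of FGF signalling, from 2.79 to 4.17. Pou5f1, which encodes the pluripotency factor Oct4, had no call (0.43; limma adjusted p = 0.163), although its TKO libraries lay above its WT libraries. Of 16 naive factors 2 were called higher, Esrrb among them, and Nanog had no call at -0.24.

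Among lineage genes, Wnt ligands had 7 of 19 called higher and 1 lower. Wnt10b rose by 0.59 and Wnt2, on chromosome 6, fell by 0.49 on the log2 scale. Primitive endoderm genes had 5 of 20 called higher, such as Amn, a receptor subunit for vitamin B12 uptake (0.61), and 3 lower, such as Afp, the fetal serum protein alpha-fetoprotein (-0.64). Gata6, their regulator, had no call (0.29). Mesoderm regulators had 1 of 18 called, Tbx6, at 0.78, with 0 called without TKO replicate 1, and Eomes was not called at 0.15. Neural regulators had 3 of 20 called higher, 1 without WT replicate 1 or TKO replicate 2, with Hes5, a target of Notch signalling, at 0.88 and Pax6 not called at -0.031. Hox genes had 4 of 39 called higher, Hoxc10 among them, with 0 left without TKO replicate 2 and 1 without WT replicate 1. Clustered protocadherins, whose many starts share a stretch of genome, had 22 of 58 higher and 9 lower, with 3 to 6 called lower and 0 to 22 higher when 1 library was left out. Pcdhgc3 at the end of its cluster rose by 0.44 and Pcdhb1 fell by 1.00 on the log2 scale.

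In housekeeping groups most members were not called, and their counts stand beside 16.4% of all protein-coding genes called higher. Cytosolic ribosomal proteins had 4 of 88 called higher (median 0.27), mitochondrial ribosomal proteins 9 of 78 (0.21), proteasome subunits 7 of 38 (0.29), RNA polymerase II subunits 4 of 13 (0.37) and splicing factors 2 of 32 (0.19). Rpl26, Mrpl10, Psmd7, Polr2d and Sf3b3 had the largest rises of these groups, between 0.50 and 0.78. There was 1 proteasome subunit called lower, Psmd6 (-0.55), and 2 splicing factors, Snrpb2 (-0.68) and Snrpn (-0.48), as many as were called higher. All 3 lie in the highest LMNB1 quartile, and Psmd6 was called lower in 1 of the 6 fits that left out a library. Histone genes had 0 of 21 called by limma and 4 higher at an unadjusted p under 0.05, with a median of 0.34. On the spike-in scale, where the median of all genes was -0.19, the medians of these 6 groups were between -0.029 and 0.14, and those of mitochondrial ribosomal proteins (-0.028) and splicing factors (-0.029) were below 0. These calls rested on single libraries. Without WT replicate 1 there were 1 of 78 mitochondrial ribosomal proteins and 0 of 38 proteasome subunits called higher, without TKO replicate 1 there were 0 of 13 RNA polymerase II subunits, and without TKO replicate 2 there was 1 of 88 cytosolic ribosomal proteins.

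Genes of the nuclear envelope and of transposon control were split. Of 25 lamins and inner membrane partners 6 were called higher and 1 lower, beside 16.4% and 13.2% of all protein-coding genes. Emd, which encodes emerin, rose by 0.76, and Syne1, a large outer-membrane linker to the cytoskeleton, went from 79.5 to 64.7 in mean relative value. Tmpo itself had values of 7.39, 6.83 and 6.62 in TKO and 5.53, 5.86 and 4.96 in WT (0.35 ± 0.12; limma adjusted p = 0.0305). Coverage over the deleted genes did not show the knockout, with changes of 0.0070 at Lmna, 0.19 at Lmnb1 and 0.35 at Lmnb2 and no call. Of 29 genes that silence or sense transposons 8 were called higher, beside the same 16.4%, led by Ehmt2, a histone H3 lysine 9 methyltransferase (0.62), with Dnmt3l, a cofactor of DNA methylation, at 0.40. Asz1, of the germline piRNA pathway, was among 3 called lower (-0.70) and lies on chromosome 6. Without WT replicate 1 there were 2 of 29 called higher, without TKO replicate 1 there were 3, and without TKO replicate 2 or WT replicate 2 there were 5. There were 2 of the 25 lamins and partners without WT replicate 1, TKO replicate 1 or TKO replicate 2, and 3 without WT replicate 3.

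**Figure D3:**
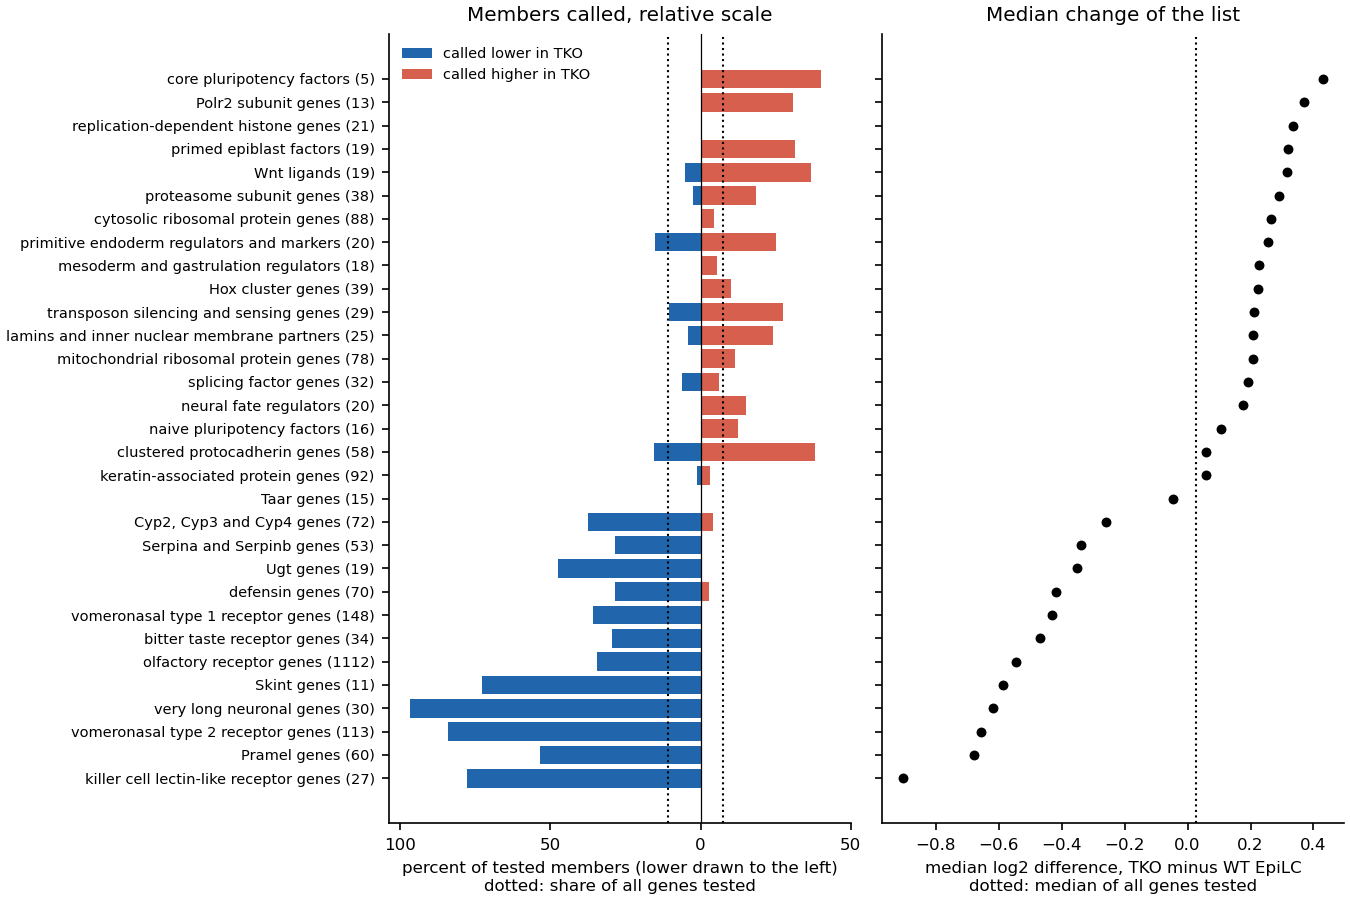
Gene lists in TKO against WT EpiLCs, with the number of tested members in brackets. Left, bars give the percent of members called lower (drawn to the left) or higher (right), and dotted lines give the shares over all genes tested, 10.7% and 7.51%. Protein-coding genes alone, whose shares are not drawn, had 13.2% called lower and 16.4% higher. Right, points give the median log2 difference of the list, from -0.90 for killer cell lectin-like receptors to 0.43 for core pluripotency factors.

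Repeats followed the same order. Transposable elements (TEs) are grouped in families of related copies, and a family's value is the mean over its copies. Of 1202 families with at least 10 copies, 178 (14.8%) were called higher and 222 (18.5%) lower, with a median change of -0.0097. These counts fell to 3 higher and 97 lower with libraries scaled by their mean family, and to 3 and 1 with the median over copies in place of the mean. In the quartile of families with least LMNB1 over IGG 155 of 300 were called higher and 0 lower. In the quartile with most, 0 of 301 were called higher and 178 lower. The change had a Pearson correlation of -0.82 and a Spearman correlation of -0.82 with log2 of LMNB1 over IGG across the families, which share libraries and, where copies lie close together, reads. The TE lamina contrast, the mean log2 value of the highest less that of the lowest of these quartiles, was -0.104, -0.090 and -0.074 in TKO and 0.243, 0.131 and 0.108 in WT (two-sided exact permutation p = 0.1, the smallest possible).

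**Figure D4:**
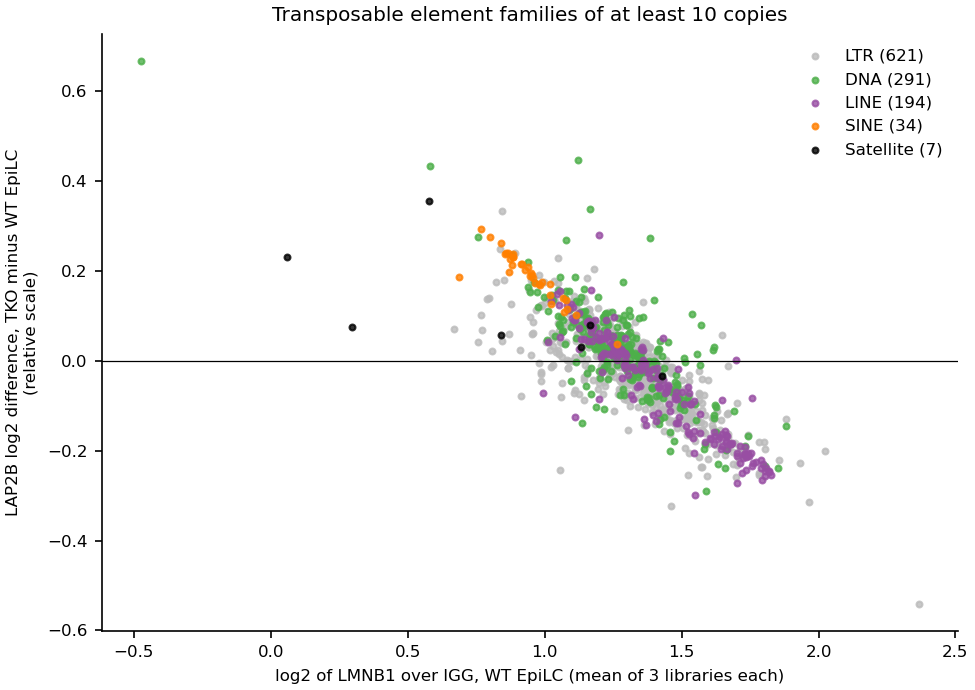
LAP2B log2 difference (TKO minus WT EpiLC, relative scale) of each TE family of at least 10 copies against log2 of LMNB1 over IGG in WT EpiLCs, coloured by class, with the number of families in brackets. SINE families lie at the upper left and most LINE families at the lower right, and the Pearson correlation over 1202 families is -0.82.

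SINEs, short elements that gather near genes, gave the clearest rise of any class. Of 34 families 33 were called higher, 0 lower, and in 34 all TKO libraries lay above all WT libraries. Over all families 14.8% were called higher, and libraries did not overlap in 21.4% in that direction and in 45.8% in either. The median change of SINEs was 0.19. B2_Mm1a, a young B2 family of 18416 copies, had relative values of 1.18, 1.16 and 1.17 in TKO and 0.895, 0.974 and 0.939 in WT (0.29 ± 0.04; limma adjusted p = 0.000259). The young B1 family B1_Mus1, with 96303 copies, had 1.19, 1.12 and 1.11 against 0.939, 0.991 and 0.986 (0.21 ± 0.04; limma adjusted p = 0.000821). All 15 B1 families, all 5 B2 families and all 8 B4 and ID families were called higher. The ancient MIRb rose by 0.12. On the spike-in scale the median of SINE families was -0.24, with 0 called by limma and 0 at an unadjusted p under 0.05, against a median of -0.44 over all families, so their rise holds on the relative scale only. Calls also depended on how families were summarised, since with libraries scaled by their mean family, or with the median over copies in place of the mean, 0 of 15 B1 families were called although the median change stayed above 0 (0.11 and 0.19).

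LINE-1 elements, the autonomous retrotransposons that make up much of lamina-associated DNA, gave most of the falls outside the LTR class. Of 194 LINE families 70 were called lower and 25 higher, beside 18.5% and 14.8% of all families. With the median over copies in place of the mean, hardly any family of any class was called lower. The LINE calls thus rest on the mean over copies. The median share of copies lower in TKO was 53.5% over LINE families, beside 50.8% over all families. It was 66.3% over L1MdA, 67.1% over the older Lx and 49.0% over the ancient L1M families. L1MdTf_III, of the active Tf group, had values of 3.06, 2.90 and 2.91 in TKO and 3.78, 3.35 and 3.85 in WT, with no overlap (-0.30 ± 0.04; limma adjusted p = 0.000259). Within L1MdA the youngest member, L1MdA_I, was not called and overlapped between the groups (3.86, 3.58 and 3.44 in TKO; 4.08, 3.56 and 4.20 in WT). The other 6 L1MdA families were called lower, from -0.14 in L1MdA_II to -0.19 in L1MdA_VII. L1VL1, L1_Mur1 and L1_Mur2 fell by 0.25 to 0.26 on the log2 scale.

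Older rodent LINE-1 groups were called lower nearly as a whole, though these calls too rest on the mean over copies. All 13 L1MdF and related families were called lower, with a median of -0.18, beside 18.5% of all families. So were 20 of 21 Lx families, with a median of -0.21. The most abundant Lx family, Lx8 with 57116 copies, had 0.961, 0.961 and 0.984 in TKO and 1.07, 1.04 and 1.02 in WT. The change was small, at -0.095 ± 0.021, and 57.9% of its copies were lower in TKO. The ancient L1M families, which predate rodents, had 17 called higher (19.8%) and 15 lower (17.4%) of 86. These shares were near the 14.8% and 18.5% of all families. Without WT replicate 1 these counts were 12 and 4 and without WT replicate 2 they were 25 and 7, and without TKO replicate 1 or 2 there were 6 called lower. L2, CR1 and MIR families had 11 of 34 called higher (32.4%) and 2 lower (5.88%).

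LTR retrotransposons, the endogenous retroviruses and their relatives, went both ways. Of 621 families 55 were called higher and 125 lower, a median of -0.021. The share called lower, 20.1%, was near the 18.5% of all families, and 14.8% of all families were called higher. The RLTR9 and RLTR17 families had 12 of 17 and the RLTR13 families 11 of 23 called lower, and without WT replicate 1 there were 5 in each. RLTR13D6 had values of 1.68, 1.72 and 1.62 in TKO and 2.13, 1.96 and 1.96 in WT (-0.25 ± 0.07; limma adjusted p = 0.00889). MER67D, an ERV1 family of 506 copies, had the largest fall of all families of at least 100 copies, at -0.31. RMER17A-int, SRV_MM-int, RLTR13F and RLTR22_Mur fell by 0.25 to 0.26 on the log2 scale. IAP families, young retroviruses under strong silencing, had 3 of 25 called lower, with 1 left without WT replicate 1, and IAPEz-int, their most abundant, overlapped between the groups (0.071 ± 0.096; limma adjusted p = 0.605).

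Among LTR branches, ERVL-MaLR had 22 of 65 families called higher and 7 lower, while ERVK had 9 of 278 higher and 89 lower. ORR1B1-int, with 65071 copies, had 1.01, 1.00 and 0.994 in TKO and 0.792, 0.851 and 0.841 in WT (0.25 ± 0.04; limma adjusted p = 0.000301), and ORR1A1-int changed by 0.24. ORR1 had 6 of 18 families called higher and MT 5 of 11, MTD among them at 0.037, and with libraries scaled by their mean family 0 of both groups were called and their medians were below 0 (-0.084 and -0.068). Calls in the MT group fell to 1 when WT replicate 1 was left out, to 2 for TKO replicate 1 and to 3 for TKO replicate 2 or 3. MT2B rose by 0.19, while MERVL-int, which marks the 2-cell-like state, was not called at 0.042. DNA transposons had 61 of 291 families called higher and 19 lower, beside 14.8% and 18.5% of all families. FordPrefect, a hAT element of 270 copies, had the largest rise of all families of at least 100 copies, with 3.73, 3.42 and 3.05 in TKO and 1.96, 2.00 and 2.34 in WT. Its log2 of LMNB1 over IGG in WT EpiLCs was -0.47, the lowest of all families tested, so IGG background exceeded LMNB1 there. All TKO libraries lay below all WT libraries in 6.30% of its copies and above them in 6.30%. Its mean rested on a part of its copies, since 57.4% of them were lower in TKO. Over all 3793386 copies, 46.5% were lower.

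Satellites, which are tandem repeats, had 2 of 7 families called higher and 0 lower, beside 14.8% and 18.5% of all families. The 2 are too few to compare with these shares. The families called were ZP3AR (0.36) and CYRA11_Mm (0.079), which the table places in the Y-chromosome group, and Y is lost in some cells of both lines. GSAT_MM, the major satellite of pericentromeric regions, was not called and overlapped between the groups (0.23 ± 0.21; limma adjusted p = 0.438). Averaged over copies, the class means differed by -0.14 for LINE, 0.21 for SINE, 0.022 for LTR, 0.088 for DNA and 0.18 for satellites. The signs of LTR and DNA depended on the summary, since LTR was -0.0945 and DNA -0.0294 with classes divided by the library mean over families, and LTR was -0.0325 as a mean over families. With classes divided by the library mean, SINE was 0.0896 and overlapped (exact p = 0.3), LINE was -0.261 and satellites 0.0659. In the averages over copies, TKO and WT libraries did not overlap in the first 4 classes (two-sided exact permutation p = 0.1 each, the smallest possible; adjusted p = 0.125), and in satellites they did (exact p = 0.2).

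**Figure D5:**
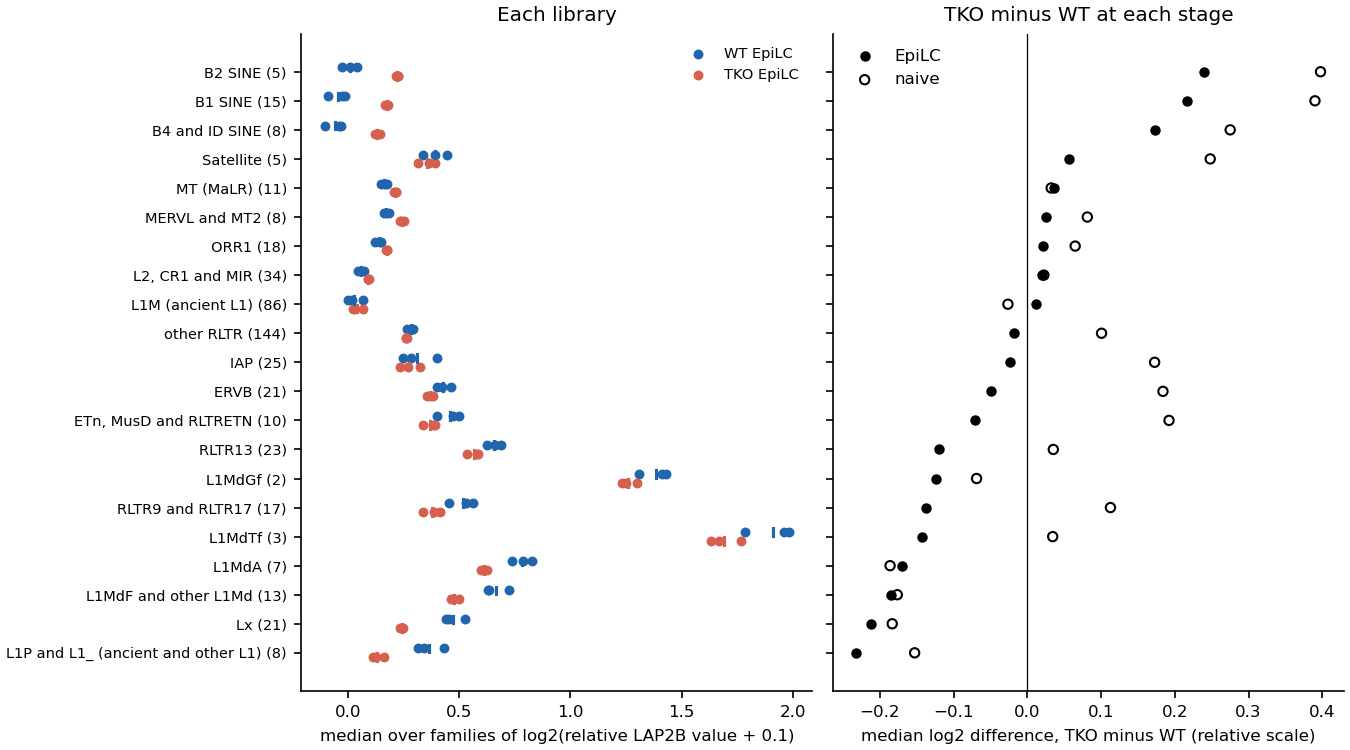
TE groups, with the number of families in brackets. Left, median over families of log2(relative LAP2B value + 0.1) in each EpiLC library (3 a genotype; short lines are means). Right, median log2 difference, TKO minus WT, in EpiLCs (filled) and naive cells (open). B1 and B2 families lie at the top in EpiLCs (0.22 and 0.24), and ETn, IAP, ERVB and RLTR9 groups are above 0 in naive cells and below 0 in EpiLCs on this relative scale.

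The comparison of EpiLCs with naive cells addresses whether the effect of lamin loss depends on the stage. The naive contrast shares no library with the EpiLC contrast, while the interaction test uses both. In naive cells 15291 genes (21.7%) were called higher and 19682 (28%) lower, 49.7% in all, and of the families 54.2%. Of the 7540 genes called lower in EpiLCs, 6539 were also called lower in naive cells and 20 were called higher there. Of the 5289 called higher, 3854 were also called higher and 50 lower. The changes at the 2 stages had a Pearson correlation of 0.66 over 70381 genes and of 0.59 over 1202 families, as a description. The interaction test called the EpiLC effect higher than the naive one at 3721 genes (5.29%) and lower at 2905 (4.13%), 9.41% in all. With libraries scaled by their mean gene, 1159 were higher and 6082 lower, and on the spike-in scale 560 (0.796%) were higher and 5 (0.0071%) lower, 0.803% in all, so the balance depends on the scaling.

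Among named genes, Ripply1 had the largest difference between stages on the relative scale. Its naive values were 1.70, 1.04 and 1.58 in TKO and 1.1, 1.25 and 0.769 in WT, so TKO was low in EpiLCs and overlapped WT in naive cells. The interaction was -1.73 (limma adjusted p = 0.00066). Very long neuronal genes fell less in EpiLCs than in naive cells (medians -0.62 and -0.92), and the interaction was positive and called in 9 of 30, Csmd1 among them (0.69; limma adjusted p = 0.00025). In the protocadherin clusters the interaction was negative and called in 22 of 58, as at Pcdhgc3, which changed by 1.32 in naive cells. Over all genes the interaction was called positive in 5.29% and negative in 4.13%, a balance that depended on the scaling. Protocadherin genes share a stretch of genome, so their values are not independent of each other. Changes at Esrrb, Etv4 and Pou5f1 were larger in naive cells, at 0.94, 1.21 and 1.40. Of the 9 named genes with a called interaction, 0 were called by limma on the spike-in scale and 4 had an unadjusted p under 0.05 there.

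Among TE families the EpiLC effect was called lower than the naive one in 199 (16.6%) and higher in 25 (2.08%) on the relative scale, 18.6% in all. Of the 199, 181 came from the 621 LTR families and 12 from the 34 SINE families, and of the 25, 11 were DNA transposons, 8 LTR and 6 LINE families. With libraries scaled by their mean family, 2 were called lower and 2 higher. The 13 families with the highest mean value, led by GSAT_MM with 51 copies, held 40.1 to 50.04% of the summed values in naive WT, 51.5 to 58.3% in naive TKO and 55.7 to 64.0% in EpiLC libraries. With that mean taken without the top 1% of families, a choice made after seeing the data, 92 were lower and 84 higher, so the balance of 199 against 25 depends on the scaling. All 10 ETn, MusD and RLTRETN families, 14 of 17 RLTR9 and RLTR17 families, 13 of 21 ERVB, 11 of 23 RLTR13 and 8 of 25 IAP families were among the 199. On the relative scale, LAP2B was called lower in EpiLCs and higher in naive cells in 21 families. RLTR13D6 was 1 of them, with naive values of 4.02, 3.08 and 3.80 in TKO and 2.91, 2.79 and 2.81 in WT. RLTR13E, RLTR9A2 and ETnERV2-int had the same pattern, with EpiLC changes of -0.22, -0.24 and -0.13 and naive changes of 0.37, 0.21 and 0.15. L1MdA_I, not called in EpiLCs at -0.12, was higher in naive TKO cells at 0.28 (interaction -0.40; limma adjusted p = 0.00483), and B1 families rose less in EpiLCs than in naive cells (9 of 15 called). These directions and stage differences were found on the relative scale and not on the spike-in scale. There, naive TKO cells had 1197 of 1202 families called lower (99.6%) and 1 higher (0.0832%), 99.7% in all, and all 21 families were among those lower. RLTR13D6 changed by -0.71 in EpiLCs and -0.77 in naive cells, and L1MdA_I changed by -0.84 in naive cells. The interaction on that scale called 0 families (0%) by limma, with 610 higher, 0 lower at an unadjusted p under 0.05, and a median of 0.58.

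On the spike-in scale genes were called lower far more often than higher. Of 70381 genes 73 (0.104%) were called higher and 6699 (9.52%) lower, 9.62% in all, and of 1202 families 0 were called higher and 188 (15.6%) lower by limma, with 0 higher and 792 lower at an unadjusted p under 0.05. LINE families made up 62 and LTR families 86 of the 188, and L1MdTf_III changed by -0.76 (limma adjusted p = 0.03996). With limma fitted on the 6 libraries alone 0 families and 156 genes were called lower. With the replicate number added to the fit as a block, 1 family and 5555 genes were. Leaving out single libraries of the 6 moved the numbers called lower widely. Genes called lower ranged from 290 without WT replicate 1 to 14016 without TKO replicate 1, and were 12513, 1958, 1820 and 892 without WT replicate 2, WT replicate 3, TKO replicate 2 and TKO replicate 3. Families called lower were 1177 without TKO replicate 1, 1140 without WT replicate 2 and at most 1 without any of the other 4. The numbers called on this scale thus depended on the spread estimated over all 24 LAP2B libraries and moved up or down with each of the 6. The sources do not settle whether the spike-in factor applies to RPKM, as taken here, or to reads. With the factor on reads, the median change of genes was 0.019 in place of -0.19. There, 274 genes were called higher and 1974 lower, and 1 family was called lower. On the relative scale, leaving out WT replicate 1 left 1772 genes called higher and 3826 lower. Without it, 27 of 30 very long neuronal genes, 141 of 1112 olfactory receptors and 57 of 113 type 2 vomeronasal receptors were called lower. Calls higher fell to 1 of 19 primed factors, 1 of 19 Wnt ligands, 0 of 20 primitive endoderm genes (also 0 without TKO replicate 1 or 3), 0 of 38 proteasome subunits and 0 of 58 protocadherins (also 0 without TKO replicate 1 and 2 without WT replicate 2), and calls lower to 19 of 148 type 1 vomeronasal receptors, 12 of 72 Cyp, 7 of 53 serpin, 12 of 70 defensin and 3 of 34 bitter taste receptor genes. Without TKO replicate 1 calls lower were 210 of olfactory and 34 of type 1 vomeronasal receptors, 17 of Cyp, 8 of serpin and 5 of bitter taste receptor genes, and without TKO replicate 2 they were 248 of olfactory and 28 of type 1 vomeronasal receptors and 8 of serpin genes. Without TKO replicate 1 or 2, 3 Wnt ligands were called higher.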

How the data were processed

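LAP2B CUT&RUN libraries of TKO and WT EpiLCs (3 each) were compared. Per the labels and the study's methods, the authors aligned reads with Bowtie2 2.3.5.1 and SAMtools 1.10 (submitters' processing notes, which also name deepTools, mm39 and sacCer3) and deposited a coverage signal per gene and per TE copy, in RPKM scaled to a yeast spike-in and summed over bins. The methods name 1 kb and 10 kb bins for genes and 10 kb for TEs. Gene values were read as 1 kb because all 343 sets of genes within 1 shared 1 kb bin had equal values. The TE values were read as 1 kb because the smallest was 0.895 to 0.910 of what 1 read was worth in the gene table, where 10 kb bins would give about 0.1. No value was computed from the TE bin width. The H3K9me3 values and a table of scores were not used here, and 0 columns of per-sample values in the tables used were left aside.

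Values were scaled so that the median gene of a library, or the median family after averaging copies, equals 1. The lowest 0.1 of genes by mean and families under 10 copies were left out. Values were tested as log2(value + 0.1 of the table median), which understates changes of low genes, with limma 3.58.1 (R 4.3.3) over 24 LAP2B libraries in 8 groups, with no covariate and Benjamini-Hochberg adjustment over all features. Single measures per library were compared by two-sided exact permutation. Tables and figures were made in Python 3.11.15 with SciPy 1.17.1, pandas 2.3.3, NumPy 2.4.6 and matplotlib 3.10.9. Whole reads were recovered for 100% of gene values (within 0.05 of a read), and edgeR 4.0.16 and DESeq2 1.42.0 on these reads were alternatives. They called 4285 and 6005 genes higher and 8048 and 8510 lower on the relative scale. Scripts were tested on simulated data.

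Named genes were protein-coding, with a symbol and at least 5 bins, called and not overlapping, the 10 largest changes in each direction with at most 2 per symbol stem, the largest called rise and fall of each list, and the first member of a list. Families were the 10 largest changes in each direction among those of at least 100 copies, and the most abundant of each group. Members and lists were chosen with earlier results of these data known. Window sequences came from the GRCm39 reference. Alternatives were each library left out, other pseudocounts and filters, mean scaling, the 6 libraries alone, a replicate block, the spike-in factor applied to reads, the median over copies and longer genes. Mean scaling without the top 1% of families was chosen after seeing the data.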

Additional observations from a re-analysis of the deposited data

Results flagged for a closer look

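The effect of lamin loss differed between EpiLCs and naive cells (limma interaction, EpiLC effect minus naive effect, adjusted p under 0.05) on the relative scale at 9 of the 92 genes and 13 of the 39 TE families the rule names, beside 9.41% of all genes and 18.6% of all families, and at 10 of 23 further families picked as examples with their values known. The share of named genes is thus near that of all genes. Of these 9 genes and 23 families 0 were called by limma on the spike-in scale, with 4 genes and 0 families at an unadjusted p under 0.05, and 22 of the 23 families had an interaction above 0. With libraries scaled by their mean family, 2 families were called lower and 2 higher of all 1202. No cause was tested. Values below are on the relative scale.

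The genes were Ripply1 (-1.73), Lmna (-1.24), Pou5f1 (-0.97), Pcdhgc3 (-0.88), Etv4 (-0.64), Esrrb (-0.57), Sf3b2 (-0.70), Csmd1 (0.69) and Syne1 (0.44). The value at Lmna, one of the deleted genes, rested on naive TKO replicate 1, at 29.6 against 8.60 and 7.70 in the other naive TKO libraries.

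Of the families, FordPrefect, where IGG exceeded LMNB1 in WT EpiLCs, had the largest difference (-0.9996; -0.35 on the spike-in scale). The ERVK families RLTR13D6 (-0.59), RLTR13E (-0.58), RLTR9A2 (-0.45), ETnERV-int (-0.39), IAPLTR1a_Mm (-0.33), IAPLTR1_Mm (-0.32), MMETn-int (-0.30), RLTR13B1 (-0.29), ETnERV2-int (-0.29), RMER17A-int (-0.26), ERVB4_1B-I_MM (-0.24), RLTR45-int (-0.23) and RLTRETN_Mm (-0.23) followed, with the young LINE-1 family L1MdA_I (-0.40). Smaller differences were found at the SINE families B2_Mm1a (-0.22), PB1D9 (-0.21), B2_Mm1t (-0.19), B1_Mur3 (-0.19) and B1_Mur4 (-0.19), at ORR1B1-int (-0.20) and MT2B (-0.16), and at the satellite family MMSAT4 (-0.28).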

How the results depend on the processing

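Directions of the lamina contrasts and of the LINE and SINE classes held under every alternative run. With mean scaling, 9548 genes were called higher and 5617 lower, TE families 3 and 97, and stage differences 1159 higher and 6082 lower in genes and 2 and 2 in families. The 13 families with the highest mean value held 55.7 to 64.0% of the summed values in EpiLC and 40.1 to 58.3% in naive libraries, and without the top 1% of families the stage counts were 84 and 92. The median over copies gave 3 families higher and 1 lower. On the spike-in scale, genes called higher were 11 with the 6 libraries alone, 274 with the factor applied to reads, 43 with no filter, 10 for genes of at least 10 kb and 40 by edgeR. Genes called lower were 156, 1974 and 4221 in the first 3, and families called lower 0 with the 6 libraries and 1 with the factor on reads. Families called higher were 1 with no size filter. With classes divided by the library mean over families, LTR turned to -0.0945 and DNA to -0.0294, and with the mean over families LTR was -0.0325.

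Leaving out 1 library at a time gave 1772 to 5299 genes called higher and 3826 to 7128 lower (both lowest without WT replicate 1), 13 to 117 and 290 to 14016 on the spike-in scale, and 2043 to 4035 and 1814 to 3402 for the stage difference. For families the ranges were 117 to 184 and 141 to 231, 0 to 0 and 0 to 1177 on the spike-in scale, and 12 to 31 and 123 to 230 for stage. The level differed by -0.585 to -0.174 over genes and -0.629 to -0.167 over families, the contrast by -0.665 to -0.497 and -0.276 to -0.209, and class means by -0.158 to -0.124 (LINE), 0.182 to 0.223 (SINE), 0.0180 to 0.0306 (LTR), 0.0716 to 0.0970 (DNA) and 0.126 to 0.233 (satellite).

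Same-numbered libraries did not deviate together (correlations -0.035, -0.0046 and -0.085), which cannot settle whether the numbers pair the samples. The log2 level over genes on the spike-in scale was 3.86, 3.32 and 3.04 in TKO replicates 1 to 3. In WT it was 3.96, 3.41 and 3.92, so same-numbered levels were close in replicates 1 and 2 and not in replicate 3. With a replicate block 5198 genes were called higher and 7514 lower, families 174 and 223, and families lower on the spike-in scale 1.

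Of named results, 1572 values kept direction and call, 173 lost the call, 4 gained it and 14 changed sign. Signs changed at Pax6 (0.075 with mean scaling, -0.098 to 0.045 with 1 library left out), IAPEz-int (-0.041), MERVL-int (-0.070) and MTD (-0.068) with mean scaling, MERVL-int (-0.0036) and FordPrefect (-0.13) with the median over copies, and Lmna (-0.00059 by DESeq2, -0.014 by edgeR, -0.031 for genes of at least 10 kb, -0.0055 without chromosomes 6, 8, X and Y, and -0.062 to 0.055 with 1 library left out). Except where a setting uses fewer samples or features, the cause was not tested. Depth limits short genes, such as Esp38 and Pramel44 with 2 and 14 reads in TKO.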
